A study of Caenorhabditis elegans with 2 samples.

Results

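Peaks of tagged DPL-1 at genes for transfer RNAs (tRNAs), small nucleolar RNAs (snoRNAs) and small nuclear RNAs (snRNAs) were taken from the authors' pooled relaxed peak list on ce11. A peak was a member when its summit lay within 200 bp of such a gene in the WBcel235 annotation. This held for 453 of 23883 peaks. Of these, 268 lay near tRNA genes, 142 near snoRNA genes and 44 near snRNA genes, with 1 peak near genes of 2 of these kinds. The list came from chromatin immunoprecipitation and sequencing of whole Caenorhabditis elegans larvae of the first stage (L1), of mixed sex, in 2 biological replicates of 1 group. Both replicates were of strain OP105, whose genotype is unc119(ed3) with the transgene wgIs105, which carries dpl-1 fused to TY1, EGFP and FLAG tags together with unc119. The tagged protein is expressed from a transgene in whole animals, so the cell types that carry a peak cannot be told apart. A size range of 150 to 350, with no unit, and a control experiment are named in the labels; the control was not analysed here. The lists hold no expression values, so the labelled stage could not be checked with markers.

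DPL-1 is the worm DP protein, which pairs with E2F proteins to bind DNA and also takes part in the DREAM complex, a repressor of cell-cycle genes. tRNA genes are transcribed by RNA polymerase III from promoter elements inside the gene, the A box and the B box. Nematode snRNA genes are transcribed from a proximal sequence element upstream of the gene, which the SNAPc complex binds. The snRNA genes of this annotation include the spliced leader genes: SL1 RNA, from the sls-1 genes, supplies the leader that is spliced onto many messenger RNAs, and SL2 RNA, from the sls-2 genes, supplies the leader of downstream genes in operons. snoRNAs guide the chemical modification and processing of other RNAs, mainly ribosomal RNA, and in worms many lie in introns of protein-coding genes.

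Sequences upstream of strong snRNA members are given first because most of their summits stood there. Each runs 5' to 3' along the gene's strand from 85 to 11 bases before its 5' end, from the RefSeq WBcel235 genome. Capitals mark AACCCGC and TGTCNG, letters that were chosen after these sequences were seen. The first 8 genes had a peak in the stricter list, which the authors filtered by the irreproducible discovery rate (IDR), a score of whether peak ranks repeat between replicates, and sls-2.14 and sls-2.5 had a peak in the relaxed list alone. The sequence of sls-2.4, the second strongest, is not printed here.
sls-2.8 (chrIII:12250380-12250454, plus strand): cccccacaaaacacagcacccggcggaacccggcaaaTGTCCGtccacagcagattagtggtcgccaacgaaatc
sls-2.1 (chrII:5844780-5844854, plus strand): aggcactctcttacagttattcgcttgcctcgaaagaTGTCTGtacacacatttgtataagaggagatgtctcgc
sls-2.2 (chrII:5543513-5543587, plus strand): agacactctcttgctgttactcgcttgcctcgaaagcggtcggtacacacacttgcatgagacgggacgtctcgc
W05B2.8 (chrIII:10989594-10989668, plus strand): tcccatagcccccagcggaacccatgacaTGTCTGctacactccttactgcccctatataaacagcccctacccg
C52E4.8 (chrV:11980033-11980107, plus strand): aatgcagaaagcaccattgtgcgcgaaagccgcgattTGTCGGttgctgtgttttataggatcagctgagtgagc
sup-6 (chrII:12944978-12945052, minus strand): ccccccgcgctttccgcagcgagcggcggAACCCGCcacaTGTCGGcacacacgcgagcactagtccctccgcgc
F38E11.10 (chrIV:9444557-9444631, plus strand): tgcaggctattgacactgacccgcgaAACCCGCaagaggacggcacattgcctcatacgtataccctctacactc
sup-39 (chrII:6968569-6968643, minus strand): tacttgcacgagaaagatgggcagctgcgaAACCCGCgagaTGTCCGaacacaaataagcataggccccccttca
sls-2.14 (chrIII:11090534-11090608, minus strand): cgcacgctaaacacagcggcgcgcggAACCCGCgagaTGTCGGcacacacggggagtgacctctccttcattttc
sls-2.5 (chrIII:7140564-7140638, minus strand): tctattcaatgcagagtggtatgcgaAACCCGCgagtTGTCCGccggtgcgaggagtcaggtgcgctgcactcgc

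The upstream sequences of the 2 strongest snoRNA members are shown for the same reason. They run from 85 bases to 1 base before the gene.
F09G2.14 (chrV:7196581-7196665, minus strand): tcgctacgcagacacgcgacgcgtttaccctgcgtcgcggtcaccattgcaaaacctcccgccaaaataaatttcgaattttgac
Y53F4B.47 (chrII:15025894-15025978, minus strand): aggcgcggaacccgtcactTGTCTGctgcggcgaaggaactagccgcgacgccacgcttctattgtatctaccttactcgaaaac

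A group of other snoRNA genes with IDR peaks carried letters of a tRNA B box, GTTCGANNC, just before the annotated gene. Their last 60 upstream bases are shown with the B box letters in capitals.
M106.6 (chrII:10840257-10840316, plus strand): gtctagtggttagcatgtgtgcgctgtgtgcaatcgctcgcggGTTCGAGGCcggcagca
T24H7.6 (chrII:6248657-6248716, plus strand): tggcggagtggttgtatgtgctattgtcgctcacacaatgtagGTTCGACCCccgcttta
F55A11.10 (chrV:11782932-11782991, plus strand): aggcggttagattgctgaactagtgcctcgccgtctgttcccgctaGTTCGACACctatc
F11A10.9 (chrIV:12086649-12086708, plus strand): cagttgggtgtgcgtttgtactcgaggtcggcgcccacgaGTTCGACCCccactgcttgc
F12F6.11 (chrIV:11549865-11549924, minus strand): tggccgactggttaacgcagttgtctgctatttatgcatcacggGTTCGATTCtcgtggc

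For tRNA genes the whole gene is shown, with B box letters in capitals, since many summits stood inside it. Y97E10C.t1 (tRNA-Thr), W09D6.t2 (tRNA-Pro), C24H11.t1 (tRNA-Thr) and C43G2.t1 (tRNA-Leu) had IDR peaks, and C16D9.t2 (tRNA-Leu) had a relaxed peak alone. Several carry GTTCAA at the place of the B box, which the letters searched do not match.
Y97E10C.t1 (chrV:7730654-7730725, minus strand): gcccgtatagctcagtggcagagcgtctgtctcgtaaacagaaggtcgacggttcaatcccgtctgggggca
W09D6.t2 (chrIII:11066848-11066919, minus strand): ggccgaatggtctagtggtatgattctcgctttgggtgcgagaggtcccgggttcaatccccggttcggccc
C24H11.t1 (chrIII:11792782-11792853, plus strand): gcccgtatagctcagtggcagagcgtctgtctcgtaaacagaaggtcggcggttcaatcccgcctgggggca
C43G2.t1 (chrIV:6556818-6556901, plus strand): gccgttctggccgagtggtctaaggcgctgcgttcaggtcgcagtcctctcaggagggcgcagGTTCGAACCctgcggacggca
C16D9.t2 (chrV:8235458-8235539, minus strand): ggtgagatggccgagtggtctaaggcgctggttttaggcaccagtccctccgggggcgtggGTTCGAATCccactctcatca

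Peaks at these RNA genes reached the IDR list more often than peaks in general. The IDR list held the 2797 strongest of the pooled peaks, which is 11.7% of them, and 140 of the 453 members were in it, or 30.9% (26.7 to 35.4, an exact 95% Clopper-Pearson interval that covers counting error only). Peaks near snoRNA genes stood highest, with 64 of 142 in the IDR list (45.1%, 36.7 to 53.6). Peaks near snRNA genes followed with 18 of 44 (40.9%, 26.3 to 56.8), and peaks near tRNA genes with 59 of 268 (22.0%, 17.2 to 27.5). The intervals of the snoRNA and snRNA shares overlap, as do those of the snRNA and tRNA shares, and those of the snoRNA and tRNA shares do not. The signal, the peak strength given by the authors' caller on a scale that is not stated, had a median of 19.2 over the members and 11.6 over all pooled peaks, a difference of 0.73 in median log2 signal. The difference from all pooled peaks was 1.04 for snoRNA, 1.05 for snRNA and 0.56 for tRNA members. Within the IDR list the order was the opposite: IDR members had a median signal of 47.5 against 71.5 over all IDR peaks, a difference of -0.59 in median log2 signal. With the IDR list divided into 5 equal parts from the strongest to the weakest, members numbered 5, 15, 31, 39 and 50. They made up 0.894%, 2.68%, 5.54%, 6.98% and 8.93% of these parts. In the strongest part this share was below that in the whole pooled list (453 of 23883), and in the other parts above it. No test was run on these shares, since the members share 1 pooled list.

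IDR members were less often in protein-coding promoters than IDR peaks in general. A promoter window covered the 1000 bp before and the 200 bp after the start of a protein-coding transcript. Of the members, 141 lay in such a window (31.1%), against 36.0% of all pooled peaks. Of the IDR members, 51 did (36.4%), against 74.9% of all IDR peaks. Outside every promoter window, 89 of 312 members were in the IDR list (95% interval 23.6% to 33.9%), against 4.6% of all pooled peaks there. The snoRNA members outside promoter windows had 39 of 91 in the IDR list (42.9%), the tRNA members 43 of 196 (21.9%) and the snRNA members 8 of 26 (30.8%). For a member inside a promoter window, a peak of the RNA gene cannot be told apart from one of the protein-coding gene.

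**Figure D1:**
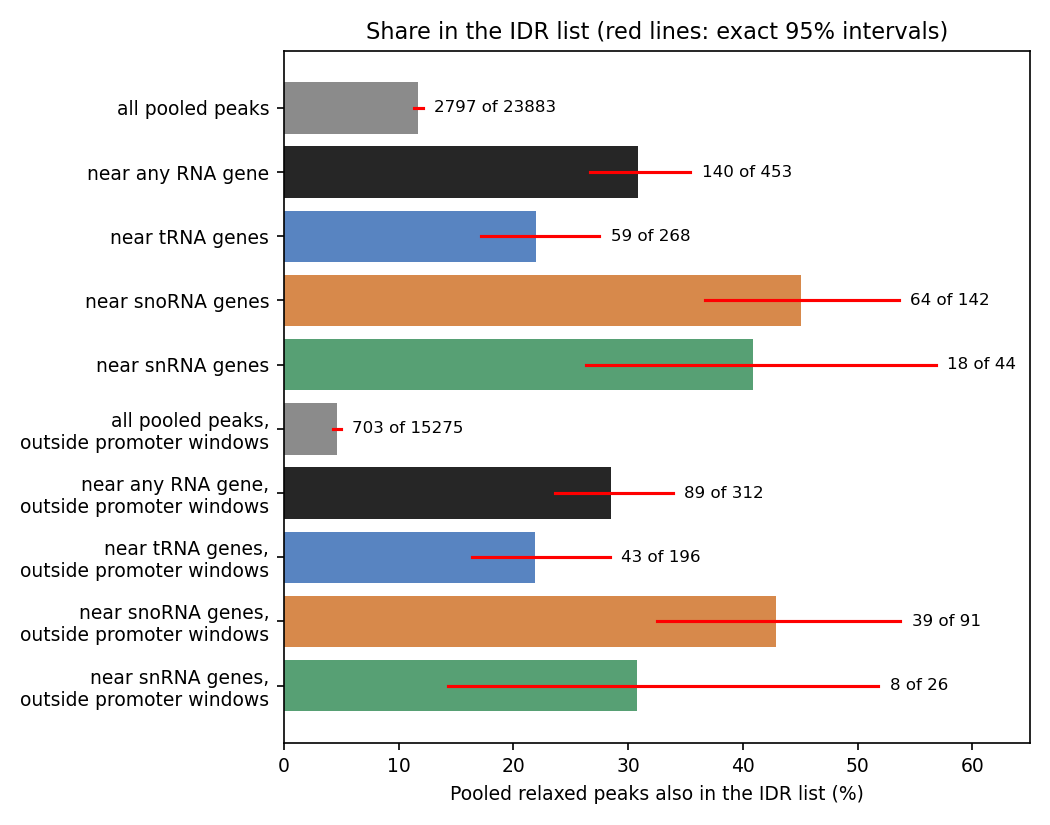
Share of pooled relaxed peaks that are also in the IDR list, in percent, for all pooled peaks and for peaks near RNA genes by kind, with the same shares outside protein-coding promoter windows below. Bars give the share, red lines its exact 95% interval and labels the counts. The members stand at 30.9% against 11.7%, and outside promoter windows 89 of 312 members were in the IDR list against 4.6% of all peaks.

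SL2 genes held the strongest member and 4 of the 6 strongest. The peak at sls-2.8 had a pooled signal of 657 and ranked 97 of all pooled peaks. Its signal was 401 in replicate 1 and 252 in replicate 2, with ranks of 108 and 96. Its summit stood 58 bp upstream of the gene and also 243 bp upstream of tim-1 and 253 bp upstream of Y75B8A.23, so it lies in their promoter windows. The peak at sls-2.4 had a pooled signal of 274 and also stood 58 bp upstream, with 171 in replicate 1 and 95.6 in replicate 2. The peaks at sls-2.1 and sls-2.2 had pooled signals of 215 and 188, with summits 88 bp and 39 bp upstream. The sls-2.2 peak lay outside every promoter window, with 96.2 in replicate 1 and 87.0 in replicate 2. These 4 genes ranked 702 or better in both replicates. The genes sls-2.1, sls-2.2 and sls-2.4 each had another IDR peak on the downstream side, with pooled signals of 95, 81.9 and 42.3. These downstream peaks had a summit within 100 bp in replicate 1 but none in replicate 2.

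The spliced leader families differed in their peaks. Of 18 sls-2 genes, 12 had a pooled peak and 7 an IDR peak. Besides the 4 strongest, sls-2.9, sls-2.3 and sls-2.7 had IDR peaks of signal 35.2, 34.5 and 30.6. The sls-2.7 peak had no summit within 100 bp in replicate 1. The sls-2.9 peak stood 121 bp upstream of that gene but 11 bp upstream of the tRNA gene M01E5.t1, so its gene is uncertain. Relaxed peaks alone stood at sls-2.14 (30.2), sls-2.5 (29.4), sls-2.17 (21.0), sls-2.13 (17.3) and sls-2.18 (16.7). The signals of sls-2.14 and sls-2.5 fell just under the lowest IDR signal of 30.3. No peak stood within 200 bp of sls-2.6, sls-2.10, sls-2.11, sls-2.12, sls-2.15 or sls-2.16. None of the 12 sls-1 genes had a peak in the pooled list. These genes lie in a cluster of near copies on chromosome V, and the treatment of reads with several mapping places is not stated, so the lack of a peak there does not show a lack of signal.

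Among other snRNA genes, W05B2.8, which lies in an intron of dhc-4 and is 1 of 14 genes of identical sequence, had a pooled signal of 187, with 104 in replicate 1 and 70.8 in replicate 2. C52E4.8 had a pooled signal of 177, and its summit stood 66 bp upstream of it and 329 bp upstream of snr-4, which encodes an Sm protein of spliceosomal snRNPs. The peaks at sup-6 and sup-39, genes known from suppressor mutations that change splice site choice, had pooled signals of 84.6 and 74.8. Their summits stood 36 bp and 20 bp upstream, and the replicates gave 45.4 and 38.3 for sup-6 and 44.3 and 28.8 for sup-39. The sup-39 peak also lies near mir-1831, which the annotation lists as an snRNA gene. Of the 12 smy genes, which encode SmY RNAs linked to trans-splicing, 5 had a peak and 1 an IDR peak, smy-2 with a pooled signal of 49.2. The annotation lists smy-2 and smy-3 as snoRNA genes, and their peaks are counted there. The genes smy-3, smy-11, smy-7 and smy-9 had relaxed peaks of signal 22.7, 14.6, 11.2 and 8.72. The summits at smy-2, smy-3 and smy-9 were upstream of the gene, that at smy-7 inside it and that at smy-11 past its end. All values in this family other than that of smy-2 thus lie below the IDR list.

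Among snoRNA genes the peak at F09G2.14 was the strongest. Its pooled signal was 470, with 277 in replicate 1 and 189 in replicate 2, and its summit stood 67 bp upstream of the gene. It also lay 269 bp upstream of F09G2.2 and 510 bp upstream of attf-2. Y53F4B.47 had a pooled signal of 255, with 153 in replicate 1 and 98.2 in replicate 2, and its summit stood 76 bp upstream of it and 145 bp upstream of cmtr-1. F39B2.14 (186), C36E8.11 (180), F59C6.15 (123), M7.15 (122), D2021.6 (107), Y55F3BR.9 (103), C26C6.13 (93.3) and T23G11.12 (91.9) were the other snoRNA members among the 20 strongest, by pooled signal. Their summits stood upstream of the gene except those of Y55F3BR.9, 10 bp inside it, and of C26C6.13, 47 bp past its end. Of these 8, Y55F3BR.9, in an intron of Y55F3BR.2 on the opposite strand, and C26C6.13 lay outside every promoter window. D2021.6 was the 1 snoRNA gene on the X chromosome with an IDR peak, and its summit stood 217 bp upstream of sdha-1, a subunit of succinate dehydrogenase. The strongest snoRNA members outside the IDR list were Y43F8C.22 (28.2) and H09I01.2 (27.3). The replicates differed at Y43F8C.22, with a rank of 21776 in replicate 1 and 1577 in replicate 2.

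tRNA genes had many members and weaker ones. The strongest was T22A3.t1, a tRNA-Gly gene in an intron of set-18, with a pooled signal of 101, a rank of 1012 and signals of 68.4 in replicate 1 and 34.8 in replicate 2. Its summit stood 20 bp upstream of the gene. C28G1.t1, a tRNA-Glu gene on the X chromosome, followed with a pooled signal of 97.7, but its summit stood 113 bp upstream of the gene and 16 bp upstream of C28G1.2. The peak at Y97E10C.t1, a tRNA-Thr gene with a sequence of its own, had a pooled signal of 90.9, with 57.4 in replicate 1 and 32.0 in replicate 2. Its summit lay inside the gene, 3 bp from the first base, and outside every promoter window. W09D6.t2 shares its peak of signal 87.5 with the neighbouring W09D6.t1, in an intron of rsa-2, and Y82E9BR.t1, a tRNA-Gly gene, had a pooled signal of 74.9. W09D6.t2 is 1 of 24 genes of identical sequence and Y82E9BR.t1 is 1 of 29. Outside the IDR list, C16D9.t2 (29.7) and F14B4.t1 (29.6) were strongest. Over the 59 tRNA members in the IDR list the pooled signal ran from 30.7 to 101 with a median of 37.3, and 33 of them fell in the weakest of the 5 equal parts of that list.

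tRNA peaks were spread over the amino acids. Of 612 nuclear tRNA genes, 278 had a pooled peak (45.4%) and 64 an IDR peak (10.5%). IDR peaks stood at 8 of 41 tRNA-Glu genes, 6 of 31 tRNA-Val genes, 5 of 39 tRNA-Leu genes and 5 of 46 tRNA-Lys genes. None stood at the 27 tRNA-Asp or the 19 tRNA-Tyr genes, although 17 and 6 of these had a relaxed peak. The 1 tRNA-Sec gene, K11H12.t1, whose tRNA inserts selenocysteine, had an IDR peak with a pooled signal of 61.9, 33.7 in replicate 1 and 27.3 in replicate 2. Its summit stood 85 bp upstream of the gene. It lay also in an intron and the promoter window of K11H12.8.

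The place of the summit differed between the kinds of gene. Positions are given along the gene from its 5' end, below 0 where the summit is upstream. In the IDR list the median was -52 bp at snRNA genes (n = 17 by nearest gene), -35 bp at snoRNA genes (n = 64) and 3 bp at tRNA genes (n = 59). At snRNA genes 13 of 17 summits were upstream, each within 100 bp, and 7 of these lay 51 to 75 bp upstream. At snoRNA genes 47 of 64 were upstream and 12 inside the gene. At tRNA genes 28 of 59 were upstream and 27 inside, 12 of the former within 25 bp of the gene. In each replicate separately, the same number of strongest peaks as the IDR list holds gave medians of -41 and -47 bp at snRNA genes, -39 and -44 bp at snoRNA genes and 10 and -1 bp at tRNA genes. The gap between tRNA genes and the other kinds was thus larger than the gap between replicates. Relaxed-only members were spread more widely, with medians of -5.5 bp at snRNA, 15.5 bp at snoRNA and 20 bp at tRNA genes.

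**Figure D2:**
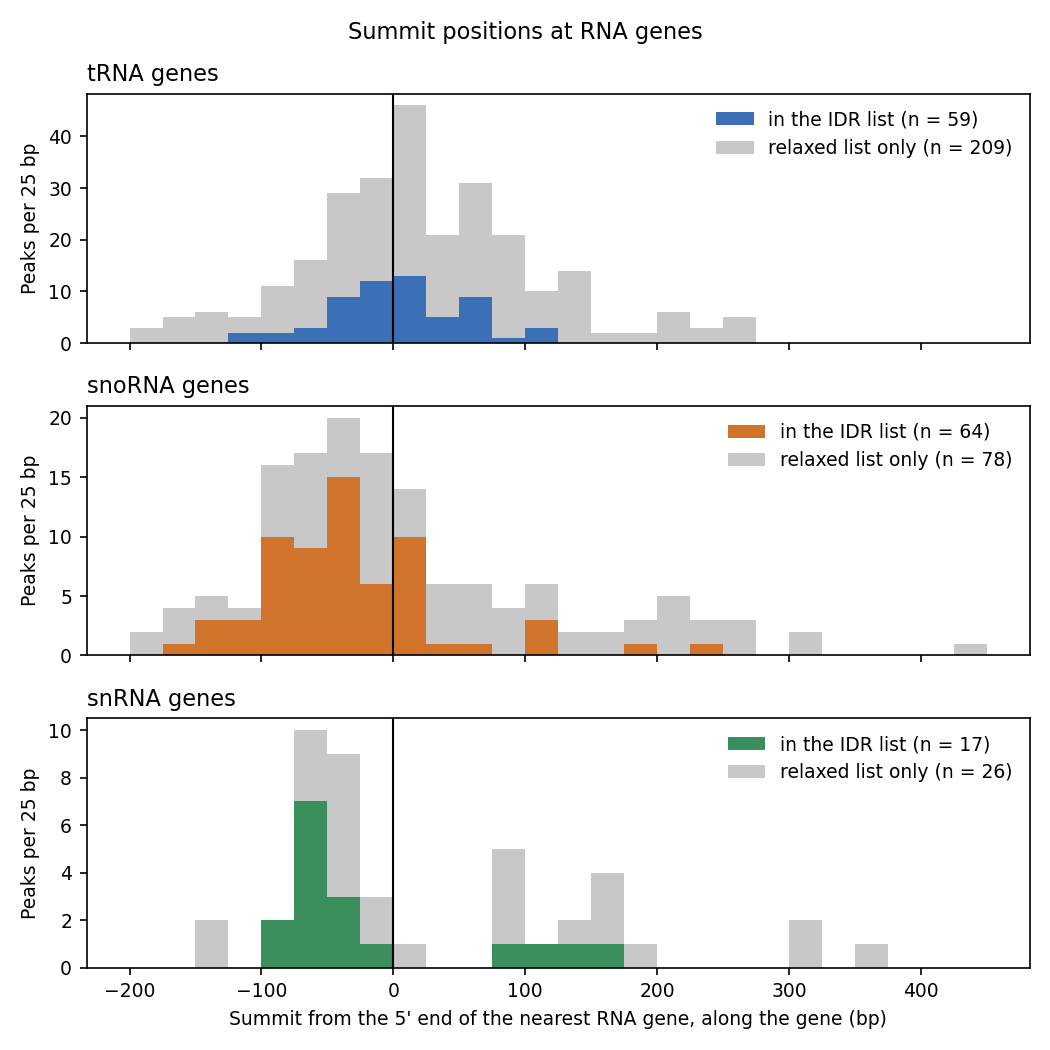
Number of member peaks per 25 bp by the distance of the summit from the 5' end of the nearest RNA gene, along the gene in bp, for tRNA, snoRNA and snRNA genes. Coloured bars are peaks in the IDR list and grey bars, stacked on them, peaks of the relaxed list only. IDR summits at snRNA genes gather upstream with a median of -52 bp, and those at tRNA genes lie around the 5' end with a median of 3 bp.

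A larger share of members than of all pooled peaks had a summit in both replicates' lists, but within the IDR list the share was slightly smaller. A summit within 100 bp in both replicates' own lists was present for 251 of 453 members (55.4%), against 27.7% of all pooled peaks. It was present for 93 of 142 snoRNA members (65.5%), 24 of 44 snRNA members (54.5%) and 135 of 268 tRNA members (50.4%). Among IDR members 131 of 140 were matched (93.6%), against 95.9% of all IDR peaks. By kind these were 63 of 64 snoRNA members (98.4%), 56 of 59 tRNA members (94.9%) and only 13 of 18 snRNA members (72.2%). Among the relaxed-only members 120 of 313 were matched (38.3%), against 18.7% of all relaxed-only peaks. The pooled list was made from the same reads as the replicates' lists, so a match is not independent of it. Members also had a higher median signal, 19.2 against 11.6 over all pooled peaks and 14.4 against 11.1 among relaxed-only peaks. Matching was not compared at equal signal. Across matched members, the signals in the 2 replicates had a Spearman correlation of 0.71 (n = 251 peaks), against 0.80 for all pooled peaks (n = 6625). It was 0.92 for snRNA, 0.78 for snoRNA and 0.53 for tRNA members. Within the IDR list it was 0.64 for members (n = 131), against 0.85 for all IDR peaks (n = 2683). By kind, IDR members gave 0.91 for snRNA (n = 13), 0.67 for snoRNA (n = 63) and 0.30 for tRNA (n = 56). For relaxed-only members the correlation was -0.04 (n = 120), against 0.27 for all relaxed-only peaks (n = 3942). These are descriptions across peaks that share their 2 libraries. Relaxed-only peaks, members or not, are those with a low signal in the pool of both replicates. The part of this choice in their correlations was not tested.

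**Figure D3:**
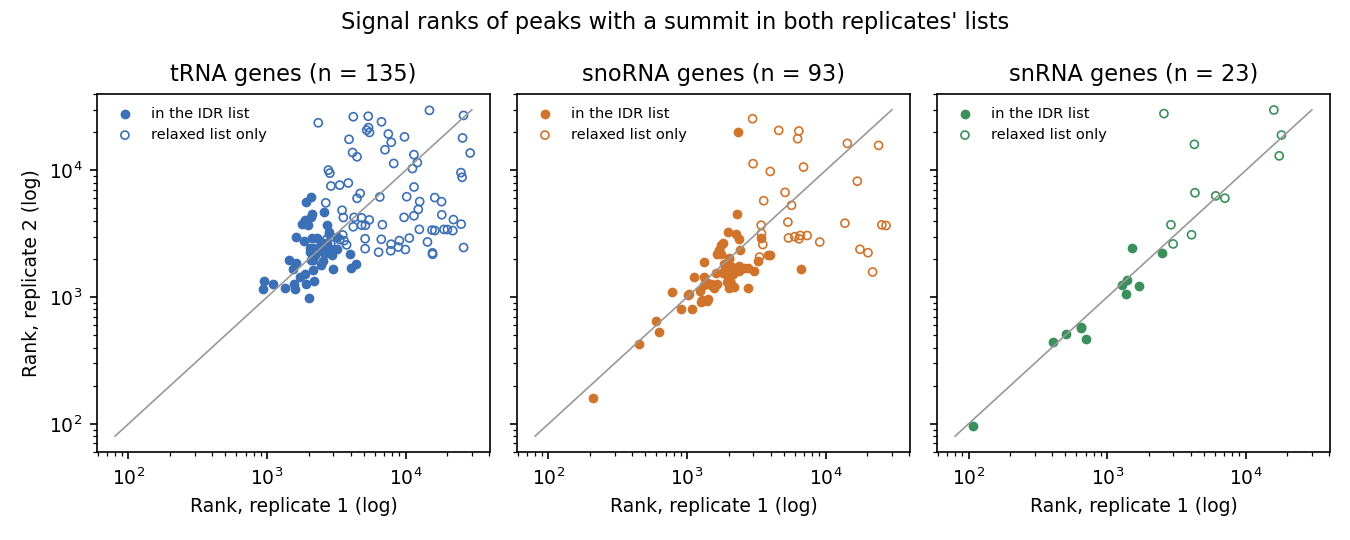
Rank by signal in replicate 1 against rank in replicate 2, both on log axes, for members with a summit in both replicates' lists, by the nearest gene's kind. Filled points are in the IDR list, open points in the relaxed list only, and the line marks equal ranks. sls-2.8 is the lowest snRNA point at ranks 108 and 96, and relaxed-only points scatter widely.

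Counted by gene, 453 of 1087 nuclear tRNA, snoRNA and snRNA genes had a pooled peak (41.7%) and 145 an IDR peak (13.3%). That the number of genes and of members is the same is a coincidence, since 25 members lay near 2 genes and some genes had several members. To compare genes of unlike length, summits within 200 bp of the 5' end were counted. By that rule 39.6% of the RNA genes had a pooled peak, against 16.5% of 19973 protein-coding genes, and 13.2% had an IDR peak, against 6.33%. In the replicates' strongest peaks the IDR-sized share was 13.3% ± 0.976 (SD, n = 2) for the RNA genes and 6.27% ± 0.131 for protein-coding genes, a difference larger than the spread between replicates. The snoRNA genes gave 18.4% ± 1.84, the snRNA genes 12.8% ± 0.548 and the tRNA genes 10.5% ± 0.809. By the same rule and list, miRNA genes gave 4.02% ± 0.271 and piRNA genes 0.15% ± 0. The comparison with protein-coding genes depended on the window. Within 200 bp of any part of the gene, 46.6% of protein-coding genes had a pooled peak, against 41.7% of the RNA genes. For IDR peaks these shares were 9.52% and 13.3%. In the wider promoter window, 14.3% of protein-coding genes had an IDR peak, no lower than the share of the RNA genes.

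tRNA and snoRNA genes on the X chromosome rarely had a strong peak. Of 276 tRNA genes on X, 8 had an IDR peak (2.9%), and of 336 on the autosomes 56 did (16.7%). In the replicates' strongest peaks the shares were 4.17% ± 0.256 and 15.8% ± 1.26 (SD, n = 2), so the difference exceeded the spread between replicates. Pooled peaks stood at 39.1% of the tRNA genes on X and at 50.6% of those on the autosomes. Among tRNA members, 7 of 101 on X were in the IDR list (6.93%) and 52 of 167 on the autosomes (31.1%). Over all pooled peaks the IDR share was also lower on X, at 6.61% against 12.7%. Of 33 snoRNA genes on X, 1 had an IDR peak (3.03%), and of 313 on the autosomes 64 did (20.4%). The order was thus not particular to tRNA genes. Genes that share their sequence with another gene made up 79.3% of the tRNA genes on X and 74.4% on the autosomes. Among tRNA genes with a sequence of their own, 2 of 57 on X and 11 of 86 on the autosomes had an IDR peak. Fewer tRNA genes on X lay inside protein-coding genes, 34.8% against 57.7%, and the part of this in the difference was not tested.

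Whether an RNA gene lay inside a protein-coding gene went with its IDR peaks in opposite ways for snoRNA and tRNA genes. Pooled peaks showed no such opposite order: they stood at 31.0% of snoRNA genes inside and 53.2% outside protein-coding genes, and at 44.8% of tRNA genes inside and 46.1% outside. Of 124 snoRNA genes outside protein-coding genes, 34 had an IDR peak (27.4%), and of 216 inside 1, 28 did (13.0%). The replicates gave 27.4% ± 1.14 and 13.2% ± 2.29 (SD, n = 2). Within introns, snoRNA genes on the host's strand had an IDR peak in 18 of 144 cases (12.5%) and those on the opposite strand in 7 of 27 (25.9%). tRNA genes inside protein-coding genes had an IDR peak in 39 of 290 cases (13.4%) and those outside in 25 of 319 (7.84%), with 13.4% ± 0.488 and 7.99% ± 1.11 in the replicates. tRNA genes on X lay less often inside protein-coding genes than those on the autosomes, and the part of the chromosome in this difference was not tested. Of 612 tRNA genes, 469 share their sequence with another gene, as do 44 of 129 snRNA genes and none of 346 snoRNA genes. IDR peaks stood at 10.9% of the tRNA genes with a shared sequence and at 9.09% of those with a sequence of their own. In the windows of the tRNA members, a median of 26.9% of the 31-base words occur more than once in the genome, against 0% for snoRNA members, so single tRNA genes are less certain.

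The letters capitalised in the sequences above were counted over all genes. AACCCGC stood in the 100 bp upstream of 33 of 129 snRNA genes (25.6%), on the gene's strand, and upstream of 39 of 19973 protein-coding genes (0.195%). TGTCNG stood upstream of 79 snRNA genes (61.2%) and of 5.08% of protein-coding genes. Of the 33 snRNA genes with AACCCGC, 18 had a pooled peak (54.5%) and 6 an IDR peak (18.2%). Of the 96 without it, 21 had a pooled peak (21.9%) and 10 an IDR peak (10.4%). At snRNA genes with an IDR peak, the middle of TGTCNG lay at a median of -47 bp from the 5' end (n = 12) and a median of 12.5 bp from the summit. A match is a description of letters, and the counts were made after these sequences had been seen.

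B box letters upstream of snoRNA genes went with peaks, in a class of genes that was chosen after their values were seen. GTTCGANNC stood on the gene's strand in the 100 bp upstream of 17 of 346 snoRNA genes (4.91%) and of 0.205% of protein-coding genes. Of these 17 snoRNA genes, 15 had a pooled peak (88.2%) and 10 an IDR peak (58.8%). Of the other 329, 121 had a pooled peak (36.8%) and 55 an IDR peak (16.7%). The replicates' strongest peaks gave 58.8% ± 8.32 and 16.7% ± 1.72 (SD, n = 2). This SD is the spread of 2 libraries and does not cover the small number of genes. Because of how the class was chosen, these shares are a description and no support. Among the IDR genes the middle of these letters lay at a median of -13 bp from the 5' end of the snoRNA gene and a median of 36.5 bp from the summit. The peaks of M106.6 (86.9), T24H7.6 (77.0), F55A11.10 (59.4), F11A10.9 (57.2) and F12F6.11 (51.3) were the strongest of them by pooled signal. Their summits stood 73, 30, 38, 29 and 23 bp upstream of the gene. M106.6 lies in an intron of mix-1, T24H7.6 in one of T24H7.2, F55A11.10 in one of F55A11.6 and F11A10.9 in one of rbm-34, all on the host's strand. Inside tRNA genes the same letters stood in 441 of 612 genes. There they did not go with more pooled peaks, with 45.1% of the genes that have them and 46.2% of those that lack them, and IDR peaks stood at 11.1% and 8.77%.

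**Figure D4:**
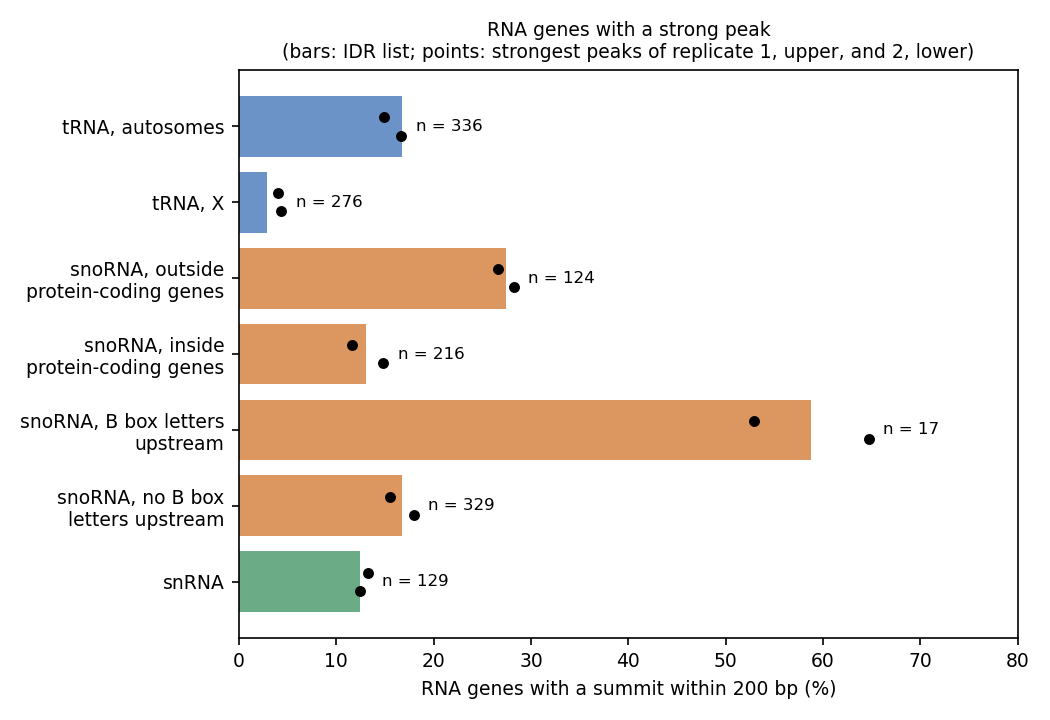
Percent of RNA genes with a summit within 200 bp, by class of gene. Bars use the IDR list, and points use the strongest peaks of replicate 1 (upper point) and replicate 2 (lower point), as many as the IDR list holds. tRNA genes on X stand at 2.9% against 16.7% on the autosomes, and snoRNA genes with B box letters upstream at 58.8% against 16.7% without. The B box class was chosen after its values were seen.

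The share of members with an E2F motif stood near that of all peaks, a little below it in the IDR list and a little above it in the pooled list. The share with a CHR motif stood below that of all peaks in both lists. Within 100 bp of the summit and on both strands, an E2F motif (TTTCCCGC, TTTGGCGC, TTTCGCGC or TTTGCCGC) stood in 13 of 140 IDR members (9.29%), against 11.9% of all IDR peaks. In the pooled list it stood in 29 of 453 members (6.4%), against 4.57% of all pooled peaks, and outside promoter windows in 6.41% against 4.07%. Gene copies of identical sequence can each add a match, E2F matches inside RNA genes were not set apart, and these differences were not tested. A CHR motif (TTTGAA or TTCGAA), the cell-cycle gene homology region that DREAM contacts, stood in 52 of 140 (37.1%), against 52.1%. In the pooled list the shares were 43.0% and 57.5%. TTCGAA can overlap a B box (GTTCGANNC), and without such matches 43 of 140 IDR members held a CHR motif (30.7%). The B box letters stood in 54 of 140 IDR members (38.6%), against 2.72% of all IDR peaks. They stood in 40 of 59 IDR tRNA members (67.8%), 12 of 64 IDR snoRNA members (18.8%) and 3 of 18 IDR snRNA members (16.7%). These letters lie inside 441 of 612 tRNA genes. Choosing peaks near such genes thus brings the letters into the windows, so the B box shares are a description only. The base composition of these windows was not compared, and its part in the shares was not tested.

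Some genes for the proteins that make or use these RNAs also carried peaks, most often those of the snoRNP core and least often those of tRNA processing. Of 39 names asked for, 30 matched a gene, and 13 of these had an IDR peak in the promoter window (43.3%), against 14.3% of all protein-coding genes. The core of snoRNPs had 5 of the 5 matched genes, with 3 more names not matched: fib-1, the methyltransferase fibrillarin (signal 269), nol-56 (201) and nol-58 (718), its partners in box C/D particles, and Y48A6B.3 (1020) and nola-3 (299) of box H/ACA particles. The peak of Y48A6B.3 ranked 32 in the pooled list, above every RNA gene member. In snRNA transcription, 3 of 8 genes had an IDR peak, snpc-4 (58.1), snpc-1.1 (130) and snpc-3.4 (374), which encode subunits of SNAPc. snpc-1.2, snpc-1.3 and snpc-3.1 had none. In RNA polymerase III, 3 of 6 did: rpc-1 (79.1), the largest subunit, rpac-19 (98.5), a subunit shared with RNA polymerase I, and mafr-1 (283), the worm Maf1, a repressor of RNA polymerase III. In tRNA processing or modification 1 of 9 did (11.1%, below the 14.3% of all protein-coding genes), trm-1 (53.5), a tRNA methyltransferase. In snRNA maturation 1 of 2 matched genes did, tgs-1 (31.1), which makes the trimethylguanosine cap, with 4 more names not matched. Peaks of fib-1, nol-58, Y48A6B.3, nola-3, snpc-1.1, rpc-1, rpac-19 and trm-1 lay also in a neighbour's promoter window.

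At the border of 200 bp, the members farthest from a gene were T10B9.t1 (199 bp, signal 11.5), F33D11.t2 (199 bp, 11.2) and Y65A5A.t2 (195 bp, 18.5). The nearest peaks outside were at F17C11.24 (202 bp, 10.1), C56G7.t1 (204 bp, 14.8) and F33G12.t1 (208 bp, 12.8). None of these 6 was in the IDR list.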

How the data were processed

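ChIP-seq of tagged DPL-1 in 2 replicates of L1 larvae was analysed from the authors' deposited peak lists on ce11: a relaxed list of 30000 peaks per replicate, a pooled relaxed list and an IDR-thresholded list. The ce10 lists were not used. The deposited signal of each peak is the authors' caller's strength value, on a scale that is not stated, so levels were not compared between lists. The peak caller, the aligner, the IDR threshold and whether reads with several mapping places were kept: not given in the sources used here. Library depth is unknown.

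Summits are the deposited start plus the deposited offset, given 1-based. Genes came from Ensembl release 115 on WBcel235, the assembly that ce11 names, and symbols and amino acids from RefSeq by WormBase ID, which matched all 1087 nuclear RNA genes and gave an amino acid for 607 tRNA genes. The 22 mitochondrial tRNA genes were left out, since the pooled list holds 0 peaks there. Lists of unequal size were compared by taking the strongest peaks of each replicate's list, as many as in the pooled or IDR list. Distances, matching and counts of the E2F form TTTGGCGC were tested on simulated peaks or sequences and recovered what was planted. Counts of the other motifs and letters were not tested in this way. Sequences and motifs came from the RefSeq WBcel235 genome. Python 3.11.15, pandas 2.3.3, numpy 2.4.6, SciPy 1.17.1 and matplotlib 3.10.9 were used.

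The members, gene lists and alternatives were chosen with earlier results of these data known. The genes named were the 20 strongest members, the 5 strongest IDR and 2 strongest other members of each kind, the named snRNA families, the members and peaks nearest the distance limit, and of the protein genes those with an IDR peak and 3 without; snoRNA genes with upstream B box letters, the other amino acids and K11H12.t1 were chosen after their values were seen. Whether every listed tRNA processing gene acts in that role was not checked. No feature-level test was run, because 1 group gives no comparison between conditions. Whether the replicates came from separate cultures is known only from their label as biological replicates.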

Additional observations from a re-analysis of the deposited data

How the results depend on the processing

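No paired analysis was possible because the 2 replicates form 1 group. Of 10 results, 1 reversed: the median log2 signal of members minus that of all peaks was -0.59 with the IDR list in place of the relaxed list, against 0.73. That difference was 0.88 and 0.59 at 100 and 500 bp, and 0.56, 1.04 and 1.05 for tRNA, snoRNA and snRNA genes only. The members numbered 392 and 590 at 100 and 500 bp. With the IDR list they numbered 140, the genes with a peak 13.3% and the members in promoter windows 36.4%. The share in the IDR list was 22.0%, 45.1% and 40.9% for tRNA, snoRNA and snRNA genes only, and 8.17% in the stronger part of the IDR list, above its median signal. The share of all pooled peaks in that stronger part was not counted, so the 8.17% has no background beside it. The share matched in both replicates was 50.7% at 500 bp, 50.4% for tRNA and 65.5% for snoRNA genes, and 35.8% and 68.7% with summits matched within 50 and 200 bp. Genes with a pooled peak were 35.9% and 52.3% at 100 and 500 bp, and genes with an IDR peak 12.1% and 16.0%, or 3.4% above the median IDR signal. Protein-coding genes were not counted above that median. Members in promoter windows were 30.4% and 35.1% at 100 and 500 bp and 26.9%, 35.9% and 40.9% for tRNA, snoRNA and snRNA genes. E2F motifs stood at 4.55% of snRNA members and 3.09% of members in a 50 bp window, against 6.4%. CHR motifs stood at 44.9% at 500 bp, at 46.3%, 39.4% and 34.1% of tRNA, snoRNA and snRNA members, at 23.4% and 62.5% in 50 and 150 bp windows and at 37.5% outside B boxes, against 43.0%. B boxes stood at 60.5% and 43.6% of tRNA members at 100 and 500 bp and at 28.7% and 62.7% in 50 and 150 bp windows, against 52.6%. Why each moved was not tested. With 1 replicate's own list in place of the pooled list, members numbered 399 to 438, the log2 difference was 0.65 to 0.83, and genes with a peak were 36.8 to 41.4% and with an IDR-sized list 12.7 to 14.2%. Members in promoter windows were 31.1% in each, E2F motifs stood at 5.71 to 7.27%, CHR motifs at 41.8 to 44.4% and B boxes at 48.9 to 52.2%. Unknown depth and scale limit all levels to ranks within a list.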
